A study of Mus musculus with 3 samples.

Results

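The antioxidant and redox defense genes of the mouse choroid plexus epithelium (CPE) were taken as the glutathione peroxidases (*Gpx*), peroxiredoxins (*Prdx*), superoxide dismutases (*Sod*), thioredoxins, thioredoxin reductases and thioredoxin domain proteins (*Txn*, *Txnrd*, *Txndc*), glutaredoxins (*Glrx*), sestrins (*Sesn*), quinone reductases (*Nqo*), heme oxygenases (*Hmox*) and methionine sulfoxide reductases (*Msr*), together with *Cat*, *Gsr*, *Gss*, *Gclc*, *Gclm*, *Txnip*, *Srxn1*, *Nfe2l2* and *Keap1*. The rule that took them uses gene names. It gave 100 of 41174 probes and 55 of 21597 genes with a symbol. Of the 55 genes, 30 had 1 probe and 25 had several. The CPE of 3 healthy adult female C57BL/6 mice was cut by laser microdissection from frozen sections of the lateral ventricles, and the amplified RNA of each mouse was hybridized to an Agilent array of its own. CPE RNA carried Cy5. The common reference, labelled with Cy3 on every array, was C57BL/6 RNA of the choroid and retinal pigment epithelium (RPE) of the eye. No treatment or genotype was compared, the dyes were not swapped, and the reference was 1 RNA, so its own spread between animals is not part of any error given here.

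The choroid plexus makes the cerebrospinal fluid and forms the barrier between blood and that fluid, and its epithelial cells are rich in mitochondria. In such cells superoxide is converted to hydrogen peroxide by superoxide dismutases, and peroxide is removed by catalase, glutathione peroxidases and peroxiredoxins. The last groups draw electrons from glutathione or thioredoxin, which are in turn reduced with NADPH. Under oxidative stress the transcription factor NRF2, encoded by *Nfe2l2*, is released from its inhibitor KEAP1 and switches on many of these genes through the antioxidant response element. The study asked which functions the genes with high expression in the CPE serve.

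The antioxidant response element was searched for in the promoter windows of the RefSeq tables (GRCm38.p6), which reach from 250 bases before to 50 bases after a transcription start. Of the 55 genes, 48 had a window. The others, *Gclc*, *Gsr*, *Hmox1*, *Msra*, *Prdx6*, *Sod3* and *Txndc10*, had none and were not searched. The core motif TGACNNNGC, or GCNNNGTCA on the other strand, was found for 13 of the 48 genes (27.1%), against 14.0% of 27025 genes with a window and 12.4% of 32851 windows. These shares were not adjusted for base composition. The 250 bases before the start are shown, 5′ to 3′ on the strand of the gene, for 5 members in which a match lay in that stretch and which stand for different steps of the defense: glutathione synthesis, peroxide removal, thioredoxin reduction, NRF2 itself and superoxide removal. Capitals mark the match.
Gclm, chr3:122245307-122245556, plus strand: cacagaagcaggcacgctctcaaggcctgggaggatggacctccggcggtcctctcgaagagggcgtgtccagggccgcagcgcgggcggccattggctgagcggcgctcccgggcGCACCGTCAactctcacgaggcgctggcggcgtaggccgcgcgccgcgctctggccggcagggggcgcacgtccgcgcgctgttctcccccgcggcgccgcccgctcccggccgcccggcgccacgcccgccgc
Prdx1, chr4:116685349-116685598, plus strand: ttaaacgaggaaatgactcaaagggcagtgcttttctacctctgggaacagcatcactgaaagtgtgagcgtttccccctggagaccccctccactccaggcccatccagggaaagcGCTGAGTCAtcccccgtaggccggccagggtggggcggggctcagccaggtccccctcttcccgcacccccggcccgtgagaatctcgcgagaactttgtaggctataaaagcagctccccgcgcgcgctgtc
Txnrd1, chr10:82858956-82859205, plus strand: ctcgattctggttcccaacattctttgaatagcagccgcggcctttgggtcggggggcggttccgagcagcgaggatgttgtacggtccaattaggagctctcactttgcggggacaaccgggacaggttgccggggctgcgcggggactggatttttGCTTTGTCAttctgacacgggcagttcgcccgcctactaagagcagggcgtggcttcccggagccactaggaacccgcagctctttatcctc
Nfe2l2, chr2:75704664-75704913, minus strand: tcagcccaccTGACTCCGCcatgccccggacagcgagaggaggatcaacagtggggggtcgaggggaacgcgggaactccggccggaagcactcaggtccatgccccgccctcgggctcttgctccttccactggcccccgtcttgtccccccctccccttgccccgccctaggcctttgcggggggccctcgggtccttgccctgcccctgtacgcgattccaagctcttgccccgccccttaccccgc
Sod1, chr16:90220512-90220761, plus strand: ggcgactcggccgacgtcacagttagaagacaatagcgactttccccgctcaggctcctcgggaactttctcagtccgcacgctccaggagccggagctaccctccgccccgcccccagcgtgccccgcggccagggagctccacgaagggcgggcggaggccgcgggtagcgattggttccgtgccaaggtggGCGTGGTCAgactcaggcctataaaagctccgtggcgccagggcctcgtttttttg
The matches began 134, 133, 92, 240 and 56 bases before the start. *Txnrd1* has 3 starts in the table, and the one shown was the only one with a match. The match of *Prdx1* overlaps TGANTCA, the motif of AP-1. A match is a run of letters and not a measured binding site. Of the 13 genes with a match, 1 (*Txndc1*, after its start) passed the threshold of the ratio test described below. Over all tested genes 8.84% passed it as higher in CPE and 11.2% as lower. Of the 7 members that passed it, 5 had a window, and *Gclc* and *Hmox1* had none.

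Of the 100 member probes, 83, 74 and 96 were well above background in the CPE channel of mice 1, 2 and 3, and 93, 90 and 95 in the reference channel. Over all 41174 probes these shares were 58.5%, 46.0% and 85.6% in CPE, so mouse 2 had the fewest detected probes and mouse 3 the most. The tissue label was checked against markers: 9 of 10 CPE markers were higher in CPE than in the reference, with summed intensities from 215000 to 245000 in CPE and from 34400 to 40400 in the reference. The exception was *Otx2*, a factor that the RPE also expresses. Markers of RPE and melanocytes were lower in CPE for 9 of 10 genes (5500 to 7790 against 246000 to 259000), those of photoreceptors for 8 of 8 (5920 to 8660 against 226000 to 235000), of red blood cells for 3 of 3 (21100 to 30300 against 142000 to 153000), of stroma for 5 of 6 (18700 to 21200 against 117000 to 135000), of neurons for 4 of 5 (1310 to 2090 against 16900 to 19400) and of macrophages for 3 of 5 (3070 to 3390 against 6900 to 7680). For endothelium, 0 of 6 markers passed the threshold (7810 to 11400 against 9810 to 11200), and for astrocytes 1 of 4 was higher and 1 was lower (3110 to 3670 against 2790 to 2990). Among these markers *Tyr* alone was well above background in none of the CPE samples. The reference thus held signal of photoreceptor, blood and stromal markers beside those of RPE. A lower ratio cannot tell fewer cells of a type from less RNA per cell, and the part of these cell types in the ratios below was not tested.

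Probes of the redox genes ranked high in the CPE channel. By the percentile of its brightest probe among all probes, averaged over the 3 mice, 28 of the 55 genes were in the high class (above the 90th percentile), 22 were moderate (50th to 90th), 5 were low (10th to 50th) and 0 were very low. Over all genes 15.7% were high. In the reference channel 24 members were high, and 22 were high in both tissues. The median percentile of the members was 90 in CPE and 87.5 in the reference, against 62.8 and 62.2 over all genes. Such a rank is that of a probe, and since probes differ in how well they hybridize, transcripts of different genes cannot be ordered by it. Markers in the high class in CPE also included 2 of 10 of RPE and melanocytes and 2 of 8 of photoreceptors. Of stroma 5 of 6 markers were high, and of red blood cells 2 of 3. A high rank alone thus does not show that CPE cells expressed a gene. With only probes well above background in CPE on all arrays ranked, 16 members were high.

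The highest rank was that of *Sod1*, the copper and zinc superoxide dismutase of the cytosol, at 99.95, 99.95 and 99.99 in the 3 mice, with a probe saturated in CPE in 2 of them. *Sod2*, the manganese enzyme of mitochondria, lay at 98.56, 98.58 and 98.62. Among the enzymes that remove peroxide, 9 of 14 were high: *Gpx4*, which reduces lipid peroxides in membranes, at 99.6, *Prdx1* at 99.3, *Gpx1* at 99.1, *Prdx2* at 99.1, *Prdx5* at 98.2, *Prdx6* at 98.0, *Cat* at 97.6, *Prdx3* at 95.1 and *Prdx4* at 93.3. High ranks were also held by the electron carriers and their partners *Txn1* (98.6), *Txn2* (94.2), *Txnrd1* (93.7), *Glrx5* (97.7) and *Txnip* (96.7), and by *Nfe2l2* (96.4), *Nqo1* (95.2) and *Hmox2* (91.2). None of the 4 glutathione synthesis and recycling genes reached the high class, with *Gsr* at 89.8, *Gclc* at 88.3, *Gss* at 82.4 and *Gclm* at 71.3. The 5 genes in the low class were *Gpx2*, *Gpx5*, *Gpx6*, *Txndc3* and *Txndc8*, at 31.6 to 45.1. Each was well above background in CPE on 1 of the 3 arrays.

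**Figure D1:**
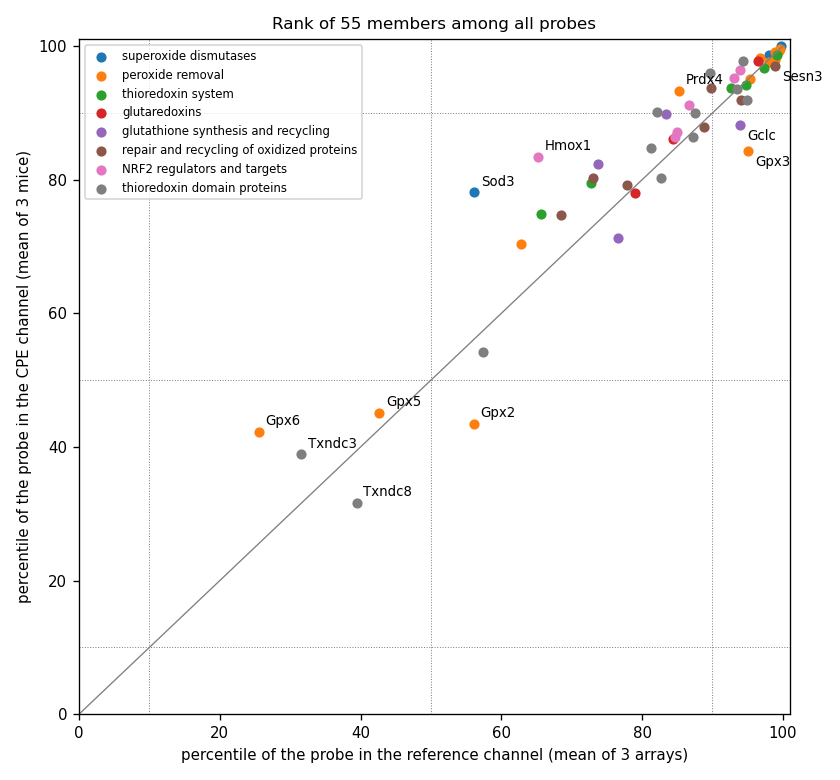
Percentile of the brightest probe of each of the 55 members among all probes, in the CPE channel (vertical axis, mean of 3 mice) against the reference channel (horizontal axis, mean of 3 arrays), coloured by role, with dotted lines at the class limits and a grey line of equal rank. Most members sit in the upper right corner with 22 above the 90th percentile in both, *Hmox1* lies above the line at 83.4 against 65.2, and *Gpx3* lies below it at 84.2 against 95.1.

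Ratios of CPE over reference were then compared. Of the 55 genes, 50 had a probe that exceeded background clearly in the same channel on each of the 3 arrays, and these were tested. The ratio is on the log2 scale, so that 1 is a 2-fold higher signal in CPE and -1 a 2-fold lower one, and a gene passed the threshold at an adjusted p under 0.05 (limma, Benjamini-Hochberg over all tested probes) and at least 2-fold. Of the 50 genes, 4 were higher in CPE (*Hmox1*, *Txndc1*, *Txndc14* and *Prdx4*) and 3 were lower (*Gpx3*, *Sesn3* and *Gclc*). Over all 15592 tested genes 8.84% were higher and 11.2% were lower. At an adjusted p under 0.05 and any fold, 25 of 50 members differed, 16 of them higher and 9 lower, against 43.6% of all genes. The median ratio was 0.09 over the members and -0.02 over all genes. Changes under 2-fold made up 86.0% of the members and 79.9% of all genes. All 3 mice had the same sign for 38 of 50 members (76.0%) and for 69.2% of all genes.

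With the dyes scaled by loess, as described below, the interval of the ratio was narrow for most members. Of the 43 members that did not pass the threshold, 36 had a 95% confidence interval inside a 2-fold change in either direction. The interval reached 2-fold for *Gclm*, *Gsr*, *Gss*, *Prdx6*, *Sod1*, *Txndc9* and *Txndc10*. It covered 0 for 22 of the 43. These intervals leave out the choice of how the dyes were scaled. With each array centred on its median instead, several of the 36 exceeded 2-fold, among them *Sod2* (1.22) and *Nfe2l2* (1.32). With every test against a 2-fold change (limma treat) rather than against 0, *Gpx3* alone passed, 2.0% of the members against 6.97% of all genes.

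**Figure D2:**
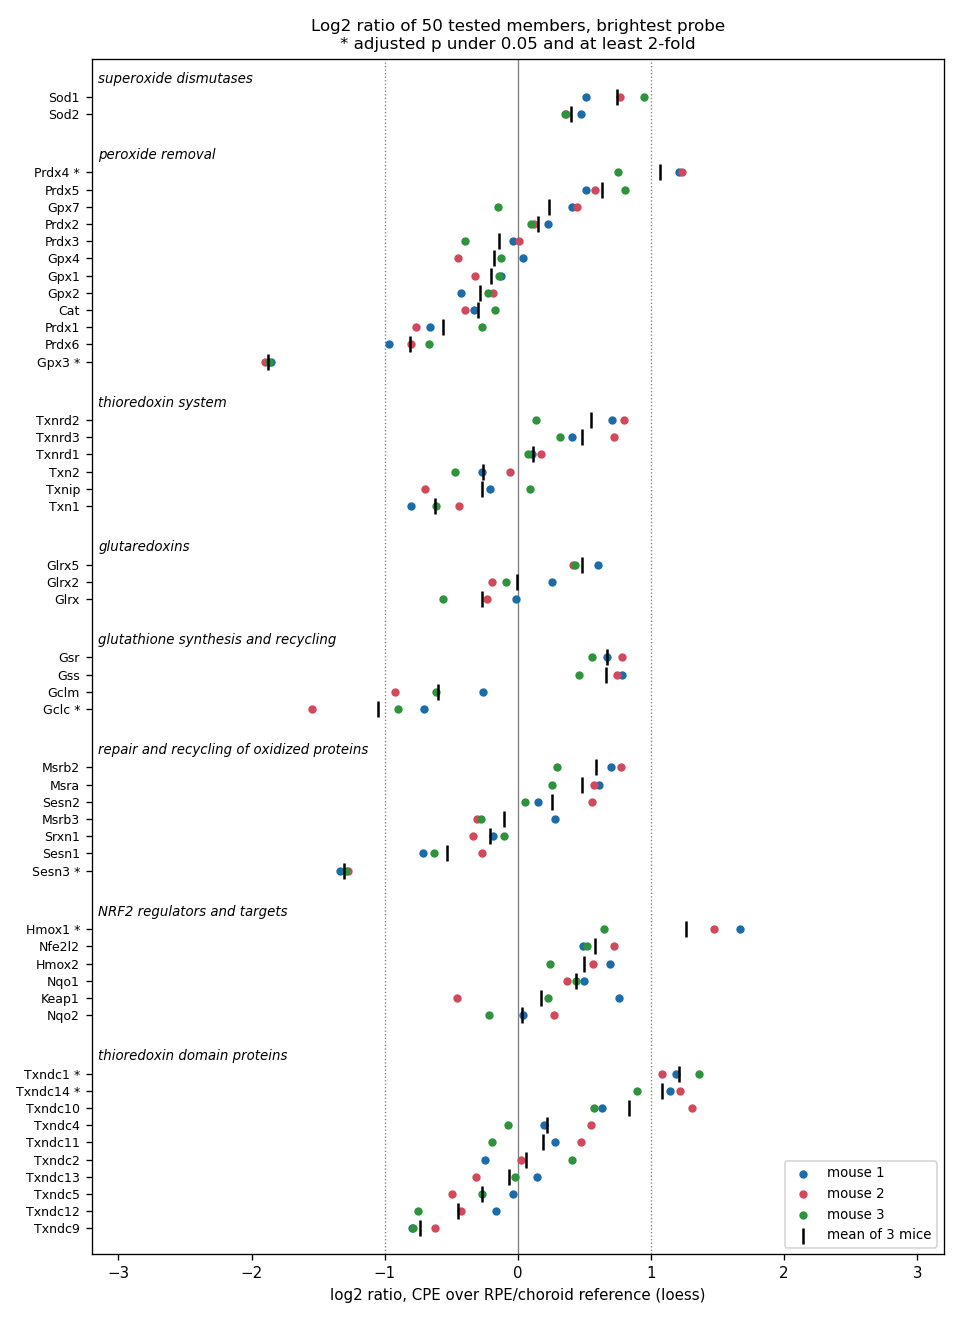
Log2 ratio of CPE over reference for the brightest probe of the 50 tested members, by role; points are the 3 mice, the black bar is their mean, dotted lines mark a 2-fold change and an asterisk marks a gene past the threshold. Most means lie inside the dotted lines, *Gpx3* and *Sesn3* lie to the left with points that overlie each other, and the points of *Hmox1* are spread from 0.64 to 1.67.

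Superoxide dismutases did not pass the threshold. *Sod1* had ratios of 0.52, 0.77 and 0.95 in mice 1, 2 and 3, with a mean of 0.74 ± 0.16 (SE, n = 3; adjusted p 0.00912). It was higher than the reference in every mouse by less than 2-fold, and its probe was saturated in CPE in 2 mice, which limits how large a ratio could be read. *Sod2* had 0.47, 0.36 and 0.36 (mean 0.40 ± 0.15 (SE); adjusted p 0.0700). *Sod3*, the secreted enzyme, was above background on 2 of 3 arrays in each channel and was not tested. Its values were 2.35, 0.40 and 1.51, positive in each mouse and far apart. With no filter on dim probes *Sod3* would pass at 1.42 ± 0.33 (SE; adjusted p 0.0229).

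Among the peroxide-removing enzymes, *Gpx3* had the lowest ratio of all members. *Gpx3* encodes the glutathione peroxidase that is secreted into extracellular fluid. Its ratios were -1.85, -1.90 and -1.87, a mean of -1.87 ± 0.15 (SE, n = 3; adjusted p 9.2e-05), or 3.67-fold lower in CPE. The 3 mice differed by 0.03 (SD), and the probe at chr11:54753357-54753416 (mm8, plus strand) exceeded background clearly in both channels of every array. The CPE level was still moderate, at percentiles of 85.1, 83.2 and 81.8. *Prdx4*, the peroxiredoxin of the endoplasmic reticulum, went the other way, with 1.21, 1.23 and 0.75 and a mean of 1.06 ± 0.17 (SE; adjusted p 0.00232). It lay at the edge of the 2-fold limit, and without mouse 1 or without mouse 2 its mean was 0.99 or 0.98.

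The other 10 tested enzymes of this group did not pass. *Prdx5* was higher by less than 2-fold (0.51, 0.58 and 0.80; adjusted p 0.0149). *Prdx1* (-0.66, -0.76 and -0.27; adjusted p 0.0311) and *Prdx6* (-0.97, -0.80 and -0.67; adjusted p 0.00526) were lower by less than 2-fold. *Prdx6* reduces phospholipid peroxides, and its probes differed, as described below. The intracellular glutathione peroxidases *Gpx1* and *Gpx4* had means of -0.20 and -0.18, catalase -0.30, *Prdx2* 0.15, *Prdx3* -0.14 and *Gpx7* 0.23, each with an interval that covered 0 and stayed within 2-fold. *Gpx2* had a mean of -0.28 and was well above background in CPE in 1 mouse.

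None of the 6 genes of the thioredoxin system and the 3 glutaredoxins passed the threshold. *Txn1*, the cytosolic thioredoxin, was lower in every mouse with loess (-0.80, -0.44 and -0.61; mean -0.62 ± 0.16 (SE), adjusted p 0.0172). The reductases that recharge the thioredoxins had means of 0.12 (*Txnrd1*), 0.55 (*Txnrd2*, mitochondrial, adjusted p 0.0468) and 0.48 (*Txnrd3*, adjusted p 0.0464). *Txn2*, the mitochondrial thioredoxin, had -0.26, and *Txnip*, a binding partner and inhibitor of thioredoxin, had -0.21, -0.69 and 0.09. *Glrx5*, a mitochondrial glutaredoxin that serves iron-sulfur cluster assembly, was higher by less than 2-fold (0.60, 0.41 and 0.43; adjusted p 0.0379), and *Glrx* (-0.27) and *Glrx2* (-0.01) had intervals that covered 0.

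Both subunits of glutamate-cysteine ligase, which makes the rate-limiting step of glutathione synthesis, had lower signals in CPE. *Gclc*, the catalytic subunit, had -0.70, -1.55 and -0.90 with a mean of -1.05 ± 0.20 (SE, n = 3; adjusted p 0.00501), at chr9:77579173-77579232 (mm8, plus strand). Mouse 2 was the lowest of the 3, and without it the mean was -0.80, inside the 2-fold limit. *Gclm*, the modifier subunit, had -0.26, -0.93 and -0.62 (mean -0.60 ± 0.18 (SE), adjusted p 0.0305). The enzyme of the next step, *Gss*, was higher in every mouse (0.78, 0.74 and 0.46; adjusted p 0.0133), as was *Gsr*, which reduces oxidized glutathione (0.67, 0.79 and 0.56; adjusted p 0.0109). *Gclm*, *Gss* and *Gsr* stayed under 2-fold. At the brightest probe of each of the 4 genes the 3 mice had the same sign. Another *Gsr* probe, 21 bases upstream, gave 0.81, 0.90 and 0.08 (mean 0.60, adjusted p 0.0474). A further *Gsr* probe, 586 bases upstream, gave 0.11, -0.54 and -0.43 (mean -0.29, adjusted p 0.246). The sign of the *Gsr* mean thus differed at this last probe, whose interval covered 0.

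Among the genes that repair or recycle oxidized proteins, *Sesn3* passed the threshold. Sestrins are stress-inducible proteins that restrain mTORC1 signalling and have been linked to the recycling of peroxiredoxins. *Sesn3* had -1.33, -1.28 and -1.29, a mean of -1.30 ± 0.15 (SE, n = 3; adjusted p 0.000509), at chr9:14083307-14083366 (mm8, plus strand). Its spread was the smallest among the called members beside *Gpx3*, at an SD of 0.03. Its probe 6902 bases further upstream also passed (-1.06, -0.82 and -1.39; adjusted p 0.0022), whereas the probe 14101 bases upstream, well above background in CPE in 1 mouse, gave 0.08, -0.16 and 0.07. *Sesn1* was lower by less than 2-fold (mean -0.53, adjusted p 0.0348), and so were its further probes (-0.87 and -0.80, adjusted p 0.0146 and 0.0258). *Sesn2* had a mean of 0.26 (adjusted p 0.267) at its brightest probe and 0.86 (1.06, 0.87 and 0.65; adjusted p 0.00466) at a probe 884 bases upstream. The methionine sulfoxide reductases *Msra* (0.48, adjusted p 0.0459) and *Msrb2* (0.59, adjusted p 0.0259) were higher by less than 2-fold. *Msrb3* (-0.10) and *Srxn1*, which repairs overoxidized peroxiredoxins (-0.21), had intervals that covered 0.

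Of the 6 genes grouped as NRF2 regulators and targets, *Hmox1* was higher in CPE. The group holds *Nfe2l2*, *Keap1* and the *Nqo* and *Hmox* genes alone. Members that NRF2 can also switch on stand in the other groups, with lower as well as higher ratios. This group thus does not stand for the NRF2 targets as a whole. *Hmox1* encodes the inducible heme oxygenase, which breaks down heme to biliverdin, iron and carbon monoxide. It had 1.67, 1.48 and 0.64, a mean of 1.26 ± 0.22 (SE, n = 3; adjusted p 0.0035), at chr8:77996380-77996439 (mm8, plus strand). Mice 1 and 2 were high and mouse 3 was lower, and with any mouse left out the mean stayed between 1.06 and 1.57. Its percentile was 86.1, 84.3 and 75.4 in the 3 mice. *Hmox2*, the constitutive heme oxygenase, was higher by less than 2-fold (0.69, 0.56 and 0.24; adjusted p 0.0445), as was *Nfe2l2* (0.49, 0.72 and 0.52; adjusted p 0.0202). *Nqo1*, a quinone reductase and common NRF2 target, had 0.49, 0.37 and 0.44, with an adjusted p of 0.0521. *Keap1* had values of both signs (0.76, -0.45 and 0.23), and *Nqo2* had a mean of 0.03.

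The thioredoxin domain proteins, most of them enzymes of disulfide exchange in the endoplasmic reticulum, held the remaining calls. *Txndc1*, now named *Tmx1*, had 1.19, 1.08 and 1.36, a mean of 1.21 ± 0.15 (SE, n = 3; adjusted p 0.000833), at chr12:71385703-71385762 (mm8, plus strand). *Txndc14*, now *Tmx2*, had 1.15, 1.21 and 0.90, a mean of 1.09 ± 0.16 (SE; adjusted p 0.00151), at chr2:84472262-84472321 (mm8, minus strand). Both are transmembrane proteins of the thioredoxin family. For each, a probe further upstream did not pass, with 0.62, -0.10 and -0.11 for *Txndc1*. *Txndc10* (*Tmx3*) was higher by less than 2-fold (0.63, 1.31 and 0.57; adjusted p 0.0113) and the brightest probe of *Txndc9* lower by less than 2-fold (-0.79, -0.62 and -0.79; adjusted p 0.00729). The pair of *Txndc9* probes nearer the 3′ end gave means of 0.08 (adjusted p 0.764) and -0.29 (adjusted p 0.206). *Txndc2*, *Txndc4* (*Erp44*), *Txndc5*, *Txndc11*, *Txndc12* and *Txndc13* (*Tmx4*) had means at their brightest probe from -0.45 to 0.22 with adjusted p-values of 0.0747 and above. Of these, *Txndc2* was well above background in CPE in 1 mouse. A *Txndc5* probe 18200 bases upstream, well above background in CPE in 2 mice, gave 0.94, 0.22 and 0.54 (mean 0.57, adjusted p 0.0423). *Txndc3* and *Txndc8* were not above background on all arrays of either channel and were not tested, and neither were *Gpx5* and *Gpx6*.

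Probes of a gene did not always give 1 value. Among 21 genes with several tested probes, those of *Txndc14*, *Nfe2l2*, *Sesn3*, *Txndc10* and *Txndc1* differed by 2-fold or more in their mean ratio. *Nfe2l2* ran from -0.76 to 0.70. The probes at its 3′ end gave 0.58 and 0.70, and those 16176 and 24980 bases upstream gave -0.10 and -0.76 and ranked at 32.8 and 45.1. The pair of further *Prdx6* probes both passed the threshold as lower (-1.23, -2.73 and -0.69, mean -1.55, adjusted p 0.0105; and -1.60, -1.50 and -0.22, mean -1.11, adjusted p 0.0152). The remaining *Prdx6* probe, nearest the 3′ end, was well above background in CPE in 1 mouse and was not tested (0.23, 0.11 and 0.11). Counted by probe, 4 of 85 tested member probes were higher in CPE and 6 were lower. Over all 25838 tested probes 7.09% were higher and 10.2% were lower. With the median over the tested probes of a gene in place of the brightest probe, and a call where most of those probes passed, 2 members were higher and 4 lower, where 7.25% of all genes were higher and 8.39% lower. *Txndc1* (0.67) and *Txndc14* (0.30) no longer passed and *Prdx6* (-1.11) did. The calls of *Hmox1*, *Gpx3* and *Gclc* could not be compared between probes, since each has 1 probe. Nor could that of *Prdx4*, whose other probe was not tested.

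In several of these genes the probes differed most in mouse 2, by their position. The RNA was amplified from its 3′ end with an oligo-dT primer. At the 3′ probe of *Txndc14* the mice gave 1.15, 1.21 and 0.90, and 2021 bases upstream they gave 0.18, -1.96 and 0.34. *Txnip* gave -0.21, -0.69 and 0.09 at the 3′ probe and -0.48, -2.03 and -0.01 at a probe 2062 bases upstream. In both genes mouse 2 alone fell below -1 at the upstream probe. In 15 of the 21 genes with tested probes at least 100 bases apart, mouse 2 lay lower against the mean of the other mice at the 5′ probe than at the 3′ probe, with a median difference of -0.30. The difference went over 1 in the lower direction for 5 genes (*Txndc14*, *Sesn1*, *Txndc4*, *Txnip* and *Txndc10*) and in the higher direction for 0. Some of the other 5′ probes, such as those of *Nfe2l2* and *Sesn3*, were well above background in CPE in 1 mouse. The counts by position were not made over all genes, so they cannot tell a trait of these genes from one of the whole array. Mouse 2 was the lowest of the 3 for 34.0% of the members and 21.2% of all genes, and mouse 3 was the lowest for 46% and 52%. The array of mouse 2 was scanned on another day than those of mice 1 and 3, and it had the fewest detected CPE probes. The part of RNA quality, amplification or scan day in this was not tested. Without mouse 2, 3 members were higher and 2 lower, *Prdx4* and *Gclc* being the calls lost (10% of the members in both directions, against 19.5% of all genes).

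**Figure D3:**
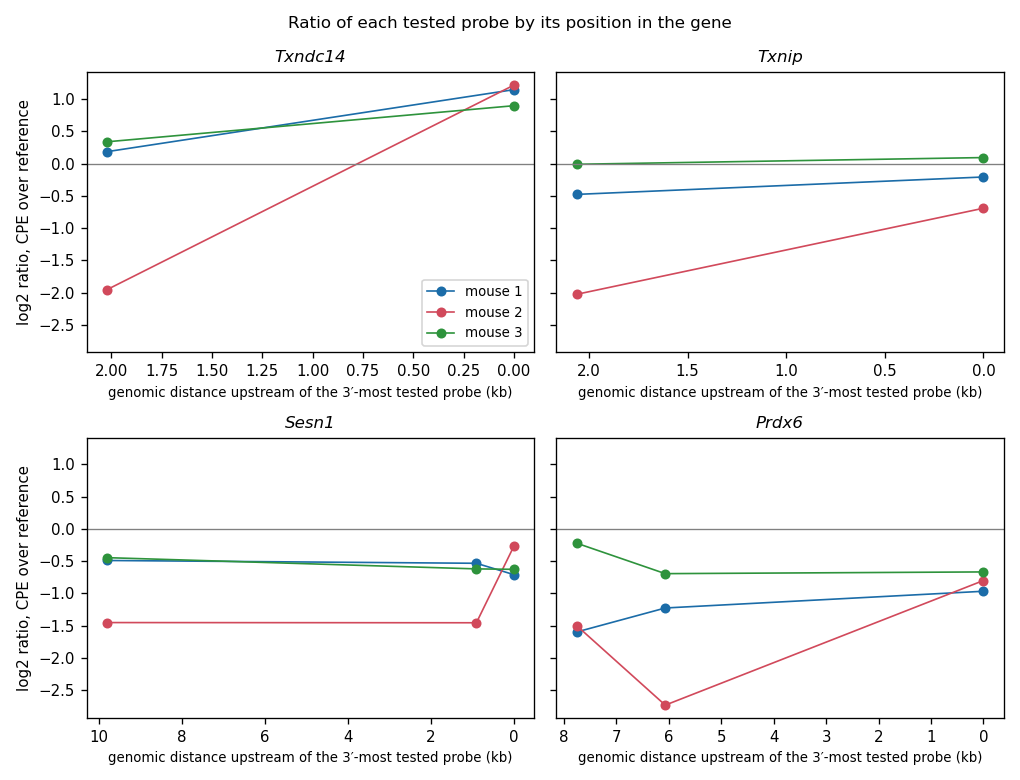
Log2 ratio of CPE over reference at each tested probe of *Txndc14*, *Txnip*, *Sesn1* and *Prdx6*, plotted by genomic distance in kilobases upstream of the 3′-most tested probe (introns included), with 1 line for each mouse. The red line of mouse 2 falls below the other mice away from the 3′ end, except at the most upstream *Prdx6* probe, and reaches -1.96 in *Txndc14*, -2.03 in *Txnip*, -1.45 in *Sesn1* and -2.73 at the middle probe of *Prdx6*.

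The calls also turned on how the dyes were scaled. Loess, used above, brings the median ratio near 0 at every brightness. With each array centred on its median instead, the median ratio of all genes rose with brightness, from -0.14 among genes with a mean log2 intensity under 8 to 0.87 among those above 12, and that of all tested genes moved from -0.02 to 0.23. The members were bright, with a median log2 intensity of 10.5 against 8.86 over all genes, and their median ratio became 0.67. Then 15 members were higher and 1 was lower, where 18.6% of all genes were higher and 7.41% lower. *Gpx3* stayed lower at -1.24, and *Hmox1*, *Prdx4*, *Txndc1* and *Txndc14* stayed higher at 1.69 to 1.89. *Gclc* (-0.44) and *Sesn3* (-0.49) no longer passed. Of the 9 members lower at an adjusted p under 0.05 with loess, *Prdx1* (0.34), *Prdx6* (0.03), *Sesn1* (0.13) and *Txn1* (0.24) changed sign. The genes *Sod1*, *Sod2*, *Prdx5*, *Glrx5*, *Gsr*, *Gss*, *Hmox2*, *Msrb2*, *Nfe2l2*, *Nqo1* and *Txndc10* became calls, higher at 1.07 to 1.72. Without a dye swap it cannot be told apart whether bright genes were higher in CPE or gave more red signal.

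**Figure D4:**
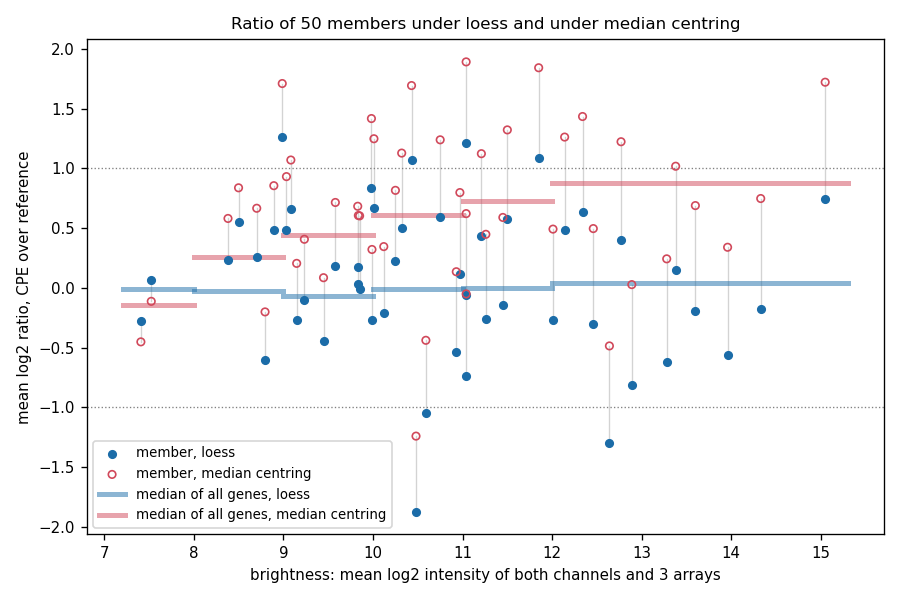
Mean log2 ratio of the 50 tested members (vertical axis) against brightness, the mean log2 intensity of both channels (horizontal axis), under loess (filled blue) and under median centring (open red), joined by grey lines for each member; thick bars are the medians of all tested genes in bins of brightness and dotted lines mark 2-fold. Under median centring the bars climb from -0.14 to 0.87 and 15 members lie above the upper line with a call, against 4 under loess.

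Genes that regulate or feed the redox systems were also compared, from lists of their known roles. Of 11 regulators of NRF2, 1 was higher: *Nfe2l1*, a relative of *Nfe2l2*, at 1.23, 0.74 and 1.03 (mean 1.00, adjusted p 0.00274). It lay at the 2-fold limit, and its mean was 0.89 without mouse 1 and 0.99 without mouse 3, under the limit. Of 10 genes listed under NADPH supply, *Idh2*, the mitochondrial isocitrate dehydrogenase (1.31), and *Tkt*, the transketolase of the pentose phosphate pathway (1.25), were higher. *Taldo1*, the transaldolase of the same pathway, was lower at -2.64, -2.54 and -2.42 (mean -2.53, adjusted p 2.8e-05). Transketolase and transaldolase, which do not make NADPH themselves, thus lay on opposite sides of the threshold in every mouse.

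Of 16 genes of cystine uptake and glutathione turnover, 3 were higher: the glutamyltransferase *Ggtla1* (1.97), the dipeptidase *Dpep1* (1.23) and the oxoprolinase *Oplah* (1.27), which act on the breakdown of glutathione and its products. *Chac1*, an enzyme that degrades glutathione inside the cell, was lower at -3.65, -3.45 and -3.59 (mean -3.56, adjusted p 8.3e-06). Of 9 genes of selenoprotein synthesis and transport, *Scly*, the selenocysteine lyase, was higher (1.75, 1.57 and 0.88). *Sepp1*, the selenium carrier of plasma, was lower (-2.69, -2.13 and -2.19), as was *Lrp2*, a receptor that takes it up (-3.17, -2.85 and -2.85). *Gpx3*, itself a secreted selenoprotein, was also lower in all 3 mice. Other selenoproteins among the members did not follow it. *Gpx1*, *Gpx2*, *Gpx4* and *Txnrd1* had intervals that covered 0, and *Txnrd2* (0.55) and *Txnrd3* (0.48) were higher by less than 2-fold.

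Of 15 tested genes that produce superoxide or peroxide, *Aox1*, an aldehyde oxidase, was higher at 3.02, 3.12 and 2.25, and *Maob*, a monoamine oxidase of the outer mitochondrial membrane, at 2.86, 2.64 and 2.67. At least 2-fold lower were 0 of the 15. *Cyba* (-1.05, -0.98 and -0.59; adjusted p 0.00521) and *Cybb* (mean -0.69, adjusted p 0.0352), which form the membrane core of the phagocyte NADPH oxidase, were lower by less than 2-fold. So were *Nox4* (-0.55, adjusted p 0.0356) and *Xdh* (-0.46, adjusted p 0.0493). *Nox4* was well above background in CPE in 1 mouse. *Noxo1*, of the same list, went the other way and was higher by just under 2-fold (1.19, 1.36 and 0.43; adjusted p 0.0079). All 5 genes of copper and metal handling differed at an adjusted p under 0.05, against 43.6% of all genes. This list was chosen with earlier results of these data known, so the count is a description and not a test of the group. *Atox1*, a copper chaperone, was higher (1.41, 1.42 and 1.22). The metallothioneins, small cysteine-rich proteins that bind zinc and copper, were split: *Mt3* was higher (3.56, 2.87 and 3.31), and *Mt1* (-2.20, -2.51 and -2.39) and *Mt2* (-3.23, -3.62 and -3.07) were lower in every mouse. *Mt3* and both others nevertheless ranked above the 97th percentile in CPE. For counts at the 2-fold threshold the shares over all genes were 8.84% higher and 11.2% lower. Of the 17 listed genes past that threshold, *Nfe2l1* alone lost its call when a mouse was left out.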

How the data were processed

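CPE of 3 mice was measured on 2-colour Agilent arrays against 1 RPE and choroid reference. Groups came from the sample labels. The members and gene lists were chosen with earlier results of these data known. The authors deposited scanner tables (Agilent Feature Extraction 9.5.3.1), which hold linear intensities of both channels with local background and flags, processed intensities, and, per the file headers, the log10 ratio of red over green. A deposited table of the series holds log2 levels of the CPE channel, which the authors normalized with Aquantile in limma under R 2.14.0. It served as an alternative.

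With R 4.3.3 and limma 3.58.1, intensities were corrected with normexp (offset 50) over all spots and normalized by loess within each array, with control and outlier spots at weight 0. Outlier and control spots were then left out and spots of a probe averaged. A probe was tested if the scanner software flagged it as well above background in the same channel of all 3 arrays. The test was an intercept-only fit with moderated variance (eBayes) of the log2 ratio against 0, and p-values were adjusted by Benjamini-Hochberg over all tested probes. A gene took the value of its brightest tested probe over both channels, and probes of other genes can share sequence, which was not checked. For the classes, log2 mean red intensity without background correction was normalized with Aquantile, averaged over mice and ranked over all probes. Marker levels were summed on the linear scale after loess and Aquantile. The fit was tested on simulated data. Every member is named. Of the pathway lists the genes past the threshold are named. Probe positions are those of the scanner files (mm8), and exons are not given because no annotation of that build was used. Gene names are those of the array design, and 6 members have newer symbols from the RefSeq table, of which 85 member probes matched by accession. Only 3 arrays limit the precision. The SE, intervals and p-values rest on a variance moderated toward that of all tested probes, not on the spread between these mice alone. For *Gpx3* the SD over the mice was 0.03 and the SE 0.15.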

Additional observations from a re-analysis of the deposited data

How the results depend on the processing

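No paired analysis was possible because there was 1 group. The log2 ratio of 50 members was recomputed under 13 other settings of background correction, scaling, filter, test, weights, arrays and probe choice. No call changed direction. Means of members that did not pass changed sign in 37 cases, 18 of them under median centring. With median centring, 15 members were higher and 1 lower, against 2903 and 1156 of all genes and 3744 probes higher. With treat against a 2-fold change, 0 members were higher and 1 lower, against 381 and 705 of all genes and 455 and 958 of all probes. The median over the probes of a gene gave 2 members higher and 4 lower, against 1131 and 1308 of all genes. The scanner log ratio called 2849 of all probes higher, and processed signals with loess called 3990 lower, against 1833 and 2629. The cause of these differences was not tested. Ranking only probes well above background in CPE left 16 members in the high class, since fewer probes were ranked. Leaving out 1 mouse gave 3 to 4 members higher and 2 to 3 lower, 1124 to 1819 of all genes higher and 1704 to 1849 lower, 1434 to 2482 probes higher and 2591 to 2829 lower, and 27 to 28 members high, 21 to 23 moderate and 4 to 6 low. Array weights, which gave mouse 3 the least weight, took *Gclc* (-0.97) under 2-fold. The scanner log ratio added *Txndc10* (1.01) and no filter added *Sod3*. Signal over background limits the 5 untested members, and saturation limits *Sod1*.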

Other observations

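Some redox genes carry an older name on the array and fell outside the choice by name. Matched through their accessions, *Gpx8*, a peroxidase of the endoplasmic reticulum, listed as 2310016C16Rik, was higher in CPE (mean log2 ratio 1.53, adjusted p 0.000348) and ranked at the 99th percentile. *Glrx3*, a glutaredoxin that serves iron-sulfur cluster assembly, listed as Txnl2, was higher at both of its probes (1.52 and 1.25, adjusted p 0.000328 and 0.000973). *Txndc15* was higher by less than 2-fold (0.86, adjusted p 0.005), and *Txndc17*, listed as Txnl5, was lower by less than 2-fold (-0.73, adjusted p 0.0106). *Msrb1*, a methionine sulfoxide reductase listed as Sepx1, had a mean of 0.03 and *Txndc16* -0.38 (adjusted p 0.0756). Adding genes by present names would therefore take the members higher in CPE from 4 to 6, and would also raise the number tested. Over all tested genes 8.84% were higher. The genes added were chosen after the values of the other members were known.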
